A study of Mus musculus with 9 samples.

Results

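Interferon-inducible GTPases were followed in mouse spinal cord through 8 of the 12488 probe sets on the array, those whose annotation gives exactly 1 gene symbol from a chosen set of 8. The set held the guanylate-binding proteins Gbp2 and Gbp3, the immunity-related GTPases Iigp1, Irgm1, Igtp, Ifi47 and Tgtp1, and the myxovirus resistance GTPase Mx1. The array annotation names 8252 genes in all. Of the 8, 7 genes had a probe set of their own, and Iigp1 had 2. Tgtp1 shared its probe set with its close relative Tgtp2. That shared probe set is described beside the others and is not counted among the 8.

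The arrays held total RNA from spinal cords of B10.PL mice in 3 groups of 3. Mice of the calcitriol group (replicates 6, 7 and 8) had experimental autoimmune encephalomyelitis (EAE, a T cell-driven inflammation of the central nervous system that serves as a model of multiple sclerosis) and had been given calcitriol, 200 ng of the active vitamin D hormone. Mice of the placebo group (replicates 1, 5 and 10) had EAE and received placebo, and naive mice (replicates 2, 3 and 4) had neither EAE nor a named treatment. Both EAE groups were sampled at 6 h. For calcitriol replicate 6, the sample title gives the hormone as a D2 compound, whereas its description gives D3. The labels give no age, sex, EAE protocol or clinical score, and do not say whether an array held the RNA of 1 mouse, so the p-values measure only the spread between these samples.

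Median deposited signals were 122 to 135.8 on calcitriol, 127.15 to 133.9 on placebo and 110.9 to 121.95 on naive arrays. Log2 signals of the tested probe sets correlated at 0.899 to 0.938 between calcitriol, 0.921 to 0.936 between placebo and 0.765 to 0.878 between naive arrays, and naive replicates 2 and 4 formed the lowest pair. The control probe sets for beta-actin gave a 5′ minus 3′ log2 difference of -0.835 to -0.518 on calcitriol, -1.108 to -0.424 on placebo and -0.251 to 0.122 on naive arrays, so this sign of RNA quality moved with EAE. All values below are signals scaled to a common mean, with a floor of 19.3 signal units for log2. Signals of different probe sets are not comparable as levels. Because whole cord was measured, more cells that make an mRNA and more mRNA per cell cannot be told apart.

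Guanylate-binding and immunity-related GTPases are made in most cell types after interferon-gamma, and more weakly after type I interferons, and they attack the membranes around intracellular parasites and bacteria. The interferon receptors signal through Janus kinases to STAT and IRF transcription factors, which bind gamma-activated sites and interferon-stimulated response elements in target promoters. Mx GTPases restrict viruses and are known as targets of type I and type III interferons. In EAE, T cells that make interferon-gamma enter the cord together with monocytes.

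The promoters of the genes were examined for these binding motifs, since most of the genes had positive differences in EAE. RefSeq promoter windows of build GRCm38.p6 ran from 250 bases before to 50 after a gene's start. They were examined for 6 of the 8 genes and for Tgtp2. No window of Iigp1 or Mx1 was examined, so the motif counts of the GTPases cover neither gene. The windows were searched on both strands for the interferon-stimulated response element, spelled TTTC, any 2 bases and TTTC, and for the gamma-activated site, spelled TTC, any 3 bases and GAA. The 2 motifs may overlap. The first motif was found for 5 of these 6 genes and for Tgtp2, against 3.44% of all 32851 windows. Igtp, Tgtp1 and Tgtp2 also held the second motif, which 8.30% of all windows hold, and 0.454% of windows hold both. In all of these windows the matches lay in the last 120 bases before the start. Those 120 bases are shown, 5′ to 3′ along the strand of the gene, with the motif matches in capitals. They are chr3:142620543-142620662 on the plus strand for Gbp2, chr3:142559924-142560043 on the plus strand for Gbp3, chr11:48871421-48871540 on the minus strand for Irgm1 and chr11:58199436-58199555 on the plus strand for Igtp. For Tgtp1 and Tgtp2 they are chr11:48992247-48992366 and chr11:49064213-49064332, both on the minus strand.
Gbp2: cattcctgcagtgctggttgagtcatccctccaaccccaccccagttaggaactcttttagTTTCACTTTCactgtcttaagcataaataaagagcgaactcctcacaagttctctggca
Gbp3: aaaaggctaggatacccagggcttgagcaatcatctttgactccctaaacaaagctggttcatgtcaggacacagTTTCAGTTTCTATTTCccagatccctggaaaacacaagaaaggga
Irgm1: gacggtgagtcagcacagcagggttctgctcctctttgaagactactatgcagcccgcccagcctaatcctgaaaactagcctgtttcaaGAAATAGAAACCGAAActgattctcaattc
Igtp: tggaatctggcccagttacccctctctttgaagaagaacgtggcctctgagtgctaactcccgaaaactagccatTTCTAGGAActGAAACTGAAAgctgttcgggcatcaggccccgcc
Tgtp1: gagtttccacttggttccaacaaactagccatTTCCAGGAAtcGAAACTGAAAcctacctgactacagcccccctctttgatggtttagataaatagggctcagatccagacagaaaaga
Tgtp2: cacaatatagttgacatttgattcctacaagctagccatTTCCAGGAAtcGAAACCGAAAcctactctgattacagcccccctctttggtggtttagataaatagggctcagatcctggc
In Gbp2 the response element spanned bases -59 to -50 before the start. Gbp3 and Irgm1 each held a pair of response elements that overlapped by 4 bases, and the capitals run through both. In Gbp3 the pair covered bases -45 to -30, and in Irgm1 it covered bases -30 to -15, on the opposite strand. A second annotated start of Gbp3 had no match. Igtp, Tgtp1 and Tgtp2 shared 1 arrangement, a gamma-activated site followed after 2 bases by a response element on the strand opposite to the gene. It began at base -45 in Igtp, -88 in Tgtp1 and -81 in Tgtp2. The window of Ifi47 held neither string of letters. A match describes letters only, and binding was not measured here.

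**Figure D1:**
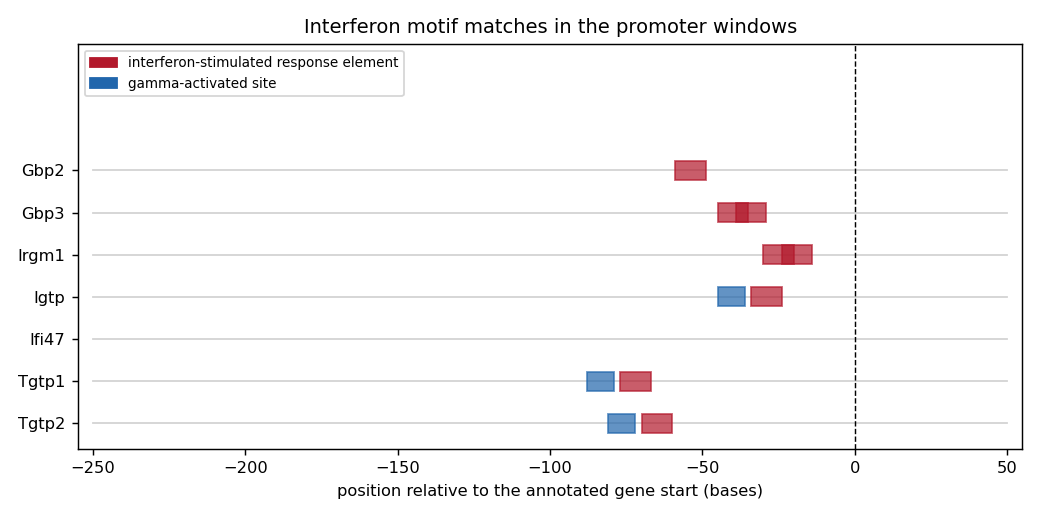
Positions of interferon motif matches (coloured blocks) relative to the annotated gene start, in bases, for 7 promoter windows (grey lines, first annotated start of each gene). Every match lies between bases -88 and -15, and Ifi47 has none.

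Gbp2, Gbp3 and Iigp1 rose in both EAE groups against naive cord, and Irgm1 rose in calcitriol-treated EAE, whereas Igtp, Ifi47 and Mx1 passed in neither. Against naive cord, 5 of the 8 probe sets rose in calcitriol-treated EAE (limma, Benjamini-Hochberg adjusted p under 0.05), those of Gbp2, Gbp3 and Irgm1 and both of Iigp1. In that comparison 1.68% of the 12177 tested probe sets rose, and 2.00% changed in either direction. In placebo-treated EAE 3 of the 8 rose against naive cord, those of Gbp2 and Gbp3 and 1 of Iigp1, where 0.887% of all tested probe sets rose and 0.936% changed in either direction. No member fell, where 0.320% of all tested probe sets fell in calcitriol-treated and 0.0493% in placebo-treated EAE. All 8 members passed the filter on low values. The 2 comparisons share the naive arrays, so they are not independent of each other. Between calcitriol-treated and placebo-treated EAE, 0 of the 8 passed the test, as did 0% of all tested probe sets.

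The arrays of the groups were often fully apart. The lowest calcitriol array lay above the highest naive array for 7 of the 8 probe sets, as it did for 8.45% of all tested probe sets. The lowest placebo array lay above the highest naive array for 6 of the 8, against 7.39% of all tested probe sets. The median difference of the 8 was 2.70 log2 for calcitriol against naive (range 0.54 to 4.52) and 1.68 log2 for placebo against naive (range -0.09 to 3.80). Over all tested probe sets the median was -0.02 log2 in both comparisons. Differences were positive for 8 of 8 with calcitriol and 7 of 8 with placebo, against 48.0% and 47.7% of all tested probe sets. An unadjusted limma p under 0.05 was found for 7 of 8 in each comparison, against 11.9% of all tested probe sets for calcitriol and 9.33% for placebo.

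**Figure D2:**
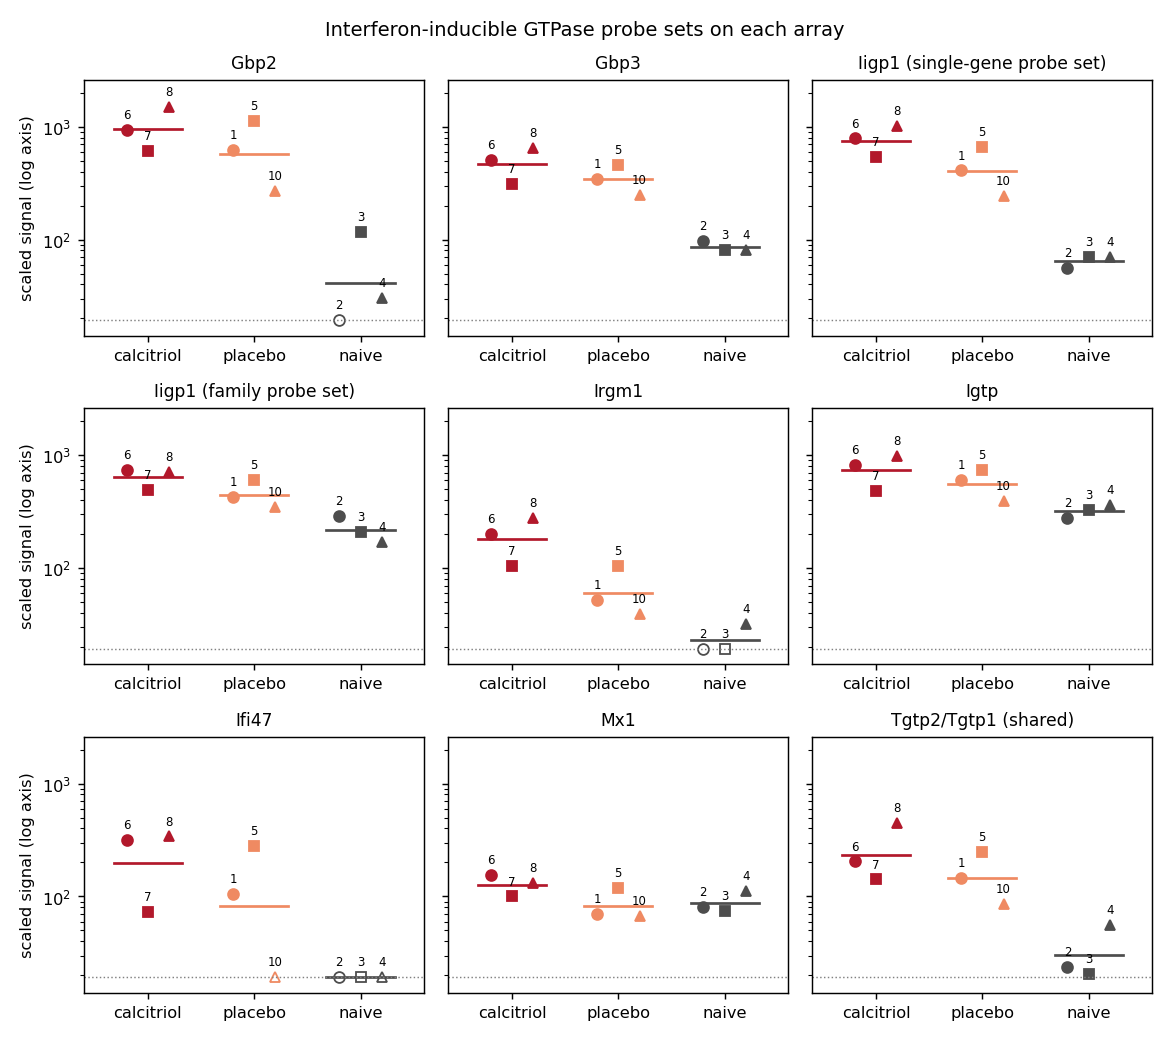
Scaled signal (log axis) of the 8 probe sets and of the probe set shared by Tgtp2 and Tgtp1 on each array, by group. Points carry replicate numbers, bars are means of log2 values, the dotted line is the floor of 19.3 and open points lie at or below it. The EAE groups lie above naive in most panels, and for Mx1 the groups overlap.

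Gbp2, a guanylate-binding protein that in mice coats the vacuoles of the parasite Toxoplasma, had the largest differences of the 8 from naive cord. Its signals were 932.7, 608.3 and 1490.6 on calcitriol replicates 6, 7 and 8. They were 625.4, 1114.2 and 268.9 on placebo replicates 1, 5 and 10. Naive replicates 2, 3 and 4 had 16.4, 117.8 and 30.6, the first of them below the floor. Every EAE array was above every naive array, and the arrays of the EAE groups overlapped. Gbp2 rose by 4.52 ± 0.69 log2 (SE, n = 3 per group) or 23.0-fold in calcitriol-treated EAE against naive (limma adjusted p = 0.0113). In placebo-treated EAE it rose by 3.80 ± 0.69 log2 (SE, n = 3 per group) or 13.9-fold against naive (limma adjusted p = 0.0386). With a floor of 20% of the common mean the differences were 4.08 log2 for calcitriol and 3.35 log2 for placebo. With array weights, which gave naive replicate 3 the highest weight, they were 3.23 and 2.64 log2. Without naive replicate 3 they were 5.28 and 4.56 log2. All of these passed the threshold, but the placebo difference missed it without the intensity trend (limma adjusted p = 0.0724) and in the 2-group fit (limma adjusted p = 0.122).

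Gbp3, another guanylate-binding protein, had the smallest spread in naive cord among the probe sets above the floor there. Its signals were 510.5, 308.8 and 644.2 on the calcitriol arrays, 344.8, 460.8 and 248.2 on the placebo arrays and 97.6, 80.8 and 80.8 on the naive arrays, each in ascending order of replicate number. The EAE arrays were all above the naive arrays, whose log2 SD was 0.16. Gbp3 rose by 2.44 ± 0.29 log2 (SE, n = 3 per group) in calcitriol-treated EAE against naive (limma adjusted p = 0.00401). It rose by 1.98 ± 0.29 log2 (SE) in placebo-treated EAE against naive (limma adjusted p = 0.0184).

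Iigp1, Ifi47 and the Tgtp proteins are immunity-related GTPases of the effector kind, which load onto parasite vacuoles and break them. Iigp1 was read by a single-gene probe set and by a family probe set, whose identifier marks probes shared within a gene family. The single-gene probe set had 785.5, 537.7 and 1007.9 on the calcitriol, 408.9, 661.6 and 241.4 on the placebo and 55.6, 69.8 and 70.7 on the naive arrays. The family probe set had 739.3, 494.9 and 707.8 on the calcitriol, 423.2, 601.9 and 346.2 on the placebo and 288.9, 207.4 and 169.4 on the naive arrays. Both had all EAE arrays above all naive arrays, and the differences were smaller on the family probe set. On the single-gene probe set Iigp1 rose by 3.53 ± 0.35 log2 (SE) in calcitriol-treated EAE (limma adjusted p = 0.00189) and by 2.63 ± 0.35 log2 (SE) in placebo-treated EAE (limma adjusted p = 0.0104), each against naive. On the family probe set it rose by 1.56 ± 0.26 log2 (SE) in calcitriol-treated EAE (limma adjusted p = 0.0174), whereas the difference of 1.04 ± 0.26 log2 (SE) in placebo-treated EAE did not pass the test (limma adjusted p = 0.152).

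Ifi47 was below the floor on all 3 naive arrays. Its signals were 314.8, 72.9 and 339.8 on calcitriol replicates 6, 7 and 8 and 105.6, 282.1 and -14.9 on placebo replicates 1, 5 and 10, against -56.4, -87.4 and -87.5 on naive replicates 2, 3 and 4. Negative signals are as deposited and carry no level. All calcitriol arrays were above the floor, and placebo replicate 10 was as dark as naive cord. The calcitriol mean was at least 10.3-fold above naive, a difference of 3.36 ± 0.89 log2 (SE) that missed the threshold (limma adjusted p = 0.118). The placebo difference, 2.11 ± 0.89 log2 (SE), also missed it (limma adjusted p = 0.492). It was 1.23 log2 without placebo replicate 5 and 3.16 log2 without placebo replicate 10. With floors of 20% and 5% of the common mean the calcitriol difference was 2.36 and 4.36 log2 and the placebo difference 1.44 and 2.77 log2. The placebo log2 SD of 1.96 was the largest group SD among the 8 probe sets.

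The probe set shared by Tgtp2 and Tgtp1 cannot separate these neighbouring genes of chromosome 11. It had 204.3, 141.6 and 445.6 on the calcitriol, 145.6, 249.1 and 86.6 on the placebo and 23.8, 20.7 and 56.1 on the naive arrays. Every EAE array was above every naive array. It rose by 2.96 ± 0.55 log2 (SE) in calcitriol-treated EAE against naive (limma adjusted p = 0.0257). That call was lost in the 2-group fit (limma adjusted p = 0.0697). In placebo-treated EAE the difference was 2.28 ± 0.55 log2 (SE, limma adjusted p = 0.127).

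Irgm1 and Igtp belong to the regulatory kind of immunity-related GTPases, which sit on the cell's own membranes and hold the effectors inactive there. Irgm1 had 200.1, 104.0 and 276.4 on the calcitriol arrays, 52.2, 104.5 and 39.3 on the placebo arrays and 9.71, -9.19 and 32.2 on the naive arrays, of which naive replicates 2 and 3 were below the floor. All EAE arrays exceeded all naive arrays. Irgm1 rose by 2.97 ± 0.47 log2 (SE, n = 3 per group) in calcitriol-treated EAE against naive (limma adjusted p = 0.0130), while in placebo-treated EAE the difference was 1.39 ± 0.47 log2 (SE, limma adjusted p = 0.335). With floors of 20% and 5% of the common mean the calcitriol difference was 2.22 and 3.63 log2, both past the threshold, and the placebo difference was 0.63 and 2.05 log2, neither past it.

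Igtp differed less from naive cord than Irgm1. Its signals were 816.2, 482.9 and 988.8 on the calcitriol, 599.6, 736.1 and 391.3 on the placebo and 275.6, 326.3 and 359.3 on the naive arrays. The EAE arrays were again all above the naive arrays. The differences from naive, 1.20 ± 0.29 log2 (SE, limma adjusted p = 0.0902) for calcitriol and 0.81 ± 0.29 log2 (SE, limma adjusted p = 0.388) for placebo, did not pass the test.

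Mx1, a nuclear GTPase that blocks influenza virus in mice with an intact gene, did not pass in any comparison. RefSeq annotates Mx1 of C57BL/6J, the reference strain, as a transcribed pseudogene, and the allele of B10.PL mice was not examined here. Its signals were 154.9, 100.1 and 132.9 on the calcitriol arrays, 70.3, 118.2 and 67.3 on the placebo arrays and 80.6, 75.0 and 111.5 on the naive arrays. The 3 groups overlapped. The difference was 0.54 ± 0.30 log2 (SE, limma adjusted p = 0.541) for calcitriol against naive and -0.09 ± 0.30 log2 (SE, limma adjusted p = 0.960) for placebo against naive. The 95% intervals of the fit, -0.13 to 1.21 and -0.76 to 0.58 log2, both included 0. The sign of the placebo difference turned with array weights (0.11 log2) and with values as deposited (0.04 log2).

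**Figure D3:**
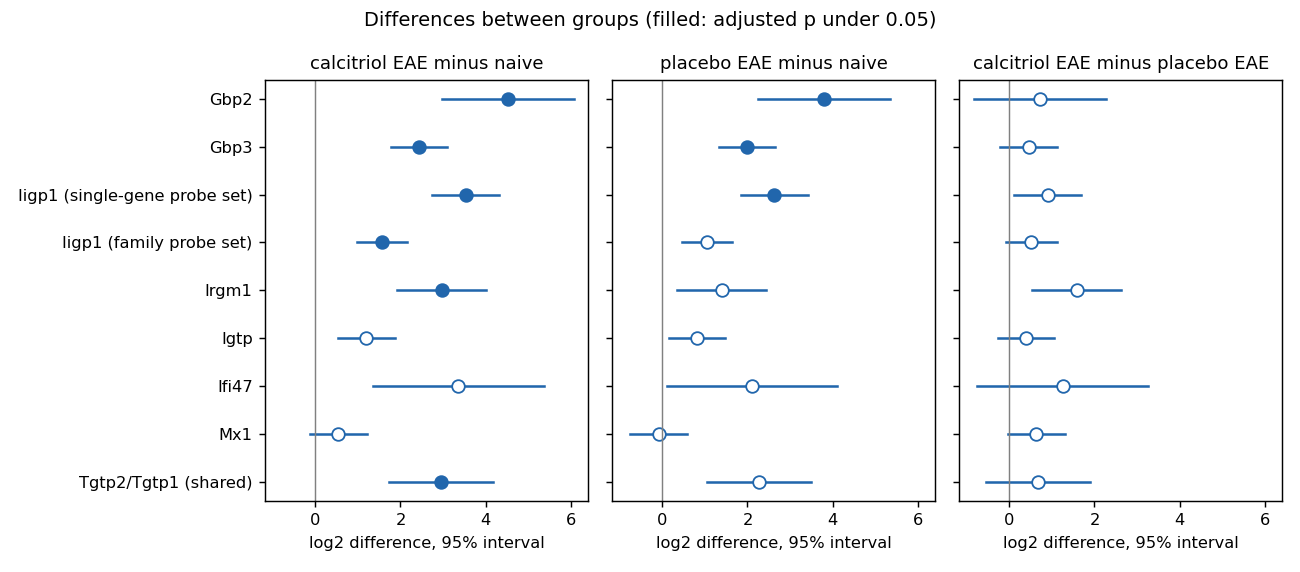
Log2 differences between groups with 95% intervals of the fit, for the 8 probe sets and the shared Tgtp2/Tgtp1 probe set. Filled points passed a limma adjusted p of 0.05. Against naive, 6 points are filled for calcitriol, the shared probe set among them, and 3 for placebo, and no point is filled between the EAE groups.

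Calcitriol was compared with placebo in EAE to find what the hormone changed within 6 h. No GTPase passed the limma test, and the adjusted p was 1.00 for each of the 8 (0 of 12177 probe sets passed). An unadjusted p under 0.05 was found for 2 of the 8, Irgm1 and the single-gene probe set of Iigp1, and for 314 or 2.58% of all tested probe sets. All 8 differences were positive, from 0.39 to 1.58 log2 with a median of 0.68, where 49.8% of all tested probe sets were positive and their median was 0.00. Members that share a pathway and the same arrays are not separate observations of a treatment effect. None of the 8 had calcitriol arrays fully above placebo arrays, as 4.82% of all tested probe sets had.

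Irgm1 had the largest of these differences, 1.58 ± 0.47 log2 (SE, 95% interval 0.53 to 2.63). Calcitriol replicate 7 and placebo replicate 5 met at 104.0 and 104.5 signal units, and the other calcitriol arrays were above all placebo arrays. The single-gene probe set of Iigp1 followed at 0.90 ± 0.35 log2 (SE, 95% interval 0.12 to 1.68). For the other 6 the interval included 0. The widest were those of Ifi47, -0.75 to 3.26 log2 (its difference of 1.25 log2 was 0.20 without placebo replicate 10), and Gbp2, -0.83 to 2.27 log2. These intervals hold both no difference and an increase of several-fold.

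Within each EAE group the GTPases followed a common order of arrays. Placebo replicate 10 was the lowest and placebo replicate 5 the highest placebo array for all 8 probe sets and for the shared one, where 32.2% and 32.1% of all tested probe sets had each of these patterns. Calcitriol replicate 7 was the lowest calcitriol array for all 8, against 28.3% of all tested probe sets. Calcitriol replicate 8 was the highest for 6 of the 8, with replicate 6 highest for Mx1 and for the family probe set of Iigp1. Gbp2 differed 4.14-fold between placebo replicates 5 and 10 and 2.45-fold between calcitriol replicates 8 and 7. These spreads within groups exceed the 1.65-fold difference between the calcitriol and placebo means of Gbp2. For Irgm1 the spread was 2.66-fold in each EAE group, below the 2.99-fold difference between their means.

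Other genes of the interferon pathway were read from lists sorted by role. Of 4 other interferon-inducible GTPases measured, out of 14 listed, 1 rose against naive in either EAE group and none fell. It was Gbp7, a further guanylate-binding protein, at 258.6, 198.7 and 376.4 on the calcitriol, 164.6, 275.8 and 113.3 on the placebo and 47.7, 7.10 and 31.6 on the naive arrays. Gbp7 rose by 3.13 ± 0.42 log2 (SE, limma adjusted p = 0.00609) in calcitriol-treated and by 2.49 ± 0.42 log2 (SE, limma adjusted p = 0.0298) in placebo-treated EAE. Irgm2, a regulatory relative of Irgm1, stood at 0.58 and 0.54 log2, Mx2 at 0.25 and -0.33 log2 and Gbp2b at -0.81 and 0.23 log2 for calcitriol and placebo against naive, none past the test. Gbp2b had an exact 0 on calcitriol replicate 6, which was raised to the floor in the fit.

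Signalling genes differed less than the GTPases. Of 7 interferon ligands, 7 receptors and kinases, 4 factors from the STAT and IRF list and 7 inhibitors tested, none passed the limma test in any comparison. The ligands tested, 7 of 13 listed, were Ifnb1, Ifna2, Ifna4, Ifna5, Ifna7, Ifna9 and Ifna11. Interferon-gamma (Ifng) was not among them, and no STAT gene was among the factors tested, so the result covers neither. The median differences for calcitriol against naive were -0.04 log2 for ligands, 0.03 log2 for receptors and kinases, 0.74 log2 for the factors and 0.69 log2 for the inhibitors. For placebo against naive they were 0.03, -0.13, 0.62 and 0.71 log2 in the same order. Among the factors, which were Irf1, Irf7, Irf8 and Irf9, Irf7 had the largest difference at 1.91 ± 0.57 log2 (SE, limma adjusted p = 0.161) for calcitriol and 1.35 ± 0.57 log2 (SE, limma adjusted p = 0.481) for placebo. Irf1, which interferon-gamma induces, stood at 0.90 and 0.75 log2. Among the inhibitors, Socs3 stood at 1.02 and 1.00 log2 and Socs1 at 0.69 and 0.77 log2.

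Interferon targets that are not GTPases were the only other list with calls. Of 36 tested, 11 rose and 0 fell in calcitriol-treated EAE against naive, with a median of 0.72 log2. In placebo-treated EAE against naive 5 rose and 0 fell, with a median of 0.41 log2. The 5 were the MHC class I subunit B2m (4.32 log2), Ifitm3, a membrane protein that blocks virus entry (3.59 log2), Ly6e (2.12 log2), the chemokine Cxcl10 (2.08 log2) and Ifit3 (2.00 log2). In calcitriol-treated EAE these stood at 5.27, 4.56, 2.46, 3.00 and 2.71 log2 and passed too. The other 6 that rose in calcitriol-treated EAE were Samhd1 (3.00 log2), Ifit1 (at least 2.68 log2), Psmb9 (2.18 log2), Psme1 (2.10 log2), Rsad2 (2.05 log2) and Ifih1 (1.89 log2). Between calcitriol and placebo none of the 36 passed, 29 were positive and the median of the 36 was 0.34 log2. Some of these differences rest on a signal of 0 on 1 array, raised to the floor in the fit. Ifi27, Psmb8 and Lgals3bp, at -1.13, -1.29 and -1.34 log2, had it on calcitriol replicate 8. Ifitm1, at 1.17 log2, had it on placebo replicate 10. Ifit1, whose protein binds viral RNA, had the largest such difference of the list at 2.27 ± 0.50 log2 (SE, limma adjusted p = 1.00). It had 191.1, 59.1 and 168.4 on the calcitriol arrays and 13.1, 45.6 and 5.50 on the placebo arrays, and all naive arrays were below the floor.

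No gene of the autophagy, inflammasome and constitutive dynamin-family lists passed the test. Of 12 autophagy genes tested, none passed in any comparison, and the median difference was -0.24 log2 for calcitriol and -0.09 log2 for placebo against naive. Products of some of these genes help to place immunity-related GTPases on membranes. Of 4 inflammasome genes, none passed, with medians of 1.02 and 0.64 log2 and with Casp4, the caspase that senses bacterial lipopolysaccharide, at 1.51 ± 0.37 log2 (SE, limma adjusted p = 0.0866) and 1.13 ± 0.37 log2 (SE, limma adjusted p = 0.305). The cytokine gene Il1b had the largest difference of that list, 2.38 ± 0.61 log2 (SE, limma adjusted p = 0.103) for calcitriol and 1.54 ± 0.61 log2 (SE, limma adjusted p = 0.443) for placebo, with all 3 naive arrays at the floor. Of 4 constitutive dynamin-family GTPases, which are structural relatives of Mx1 that interferon does not induce, none passed, with medians of -0.56 and -0.29 log2. The lists differ in size and were not tested against each other.

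**Figure D4:**
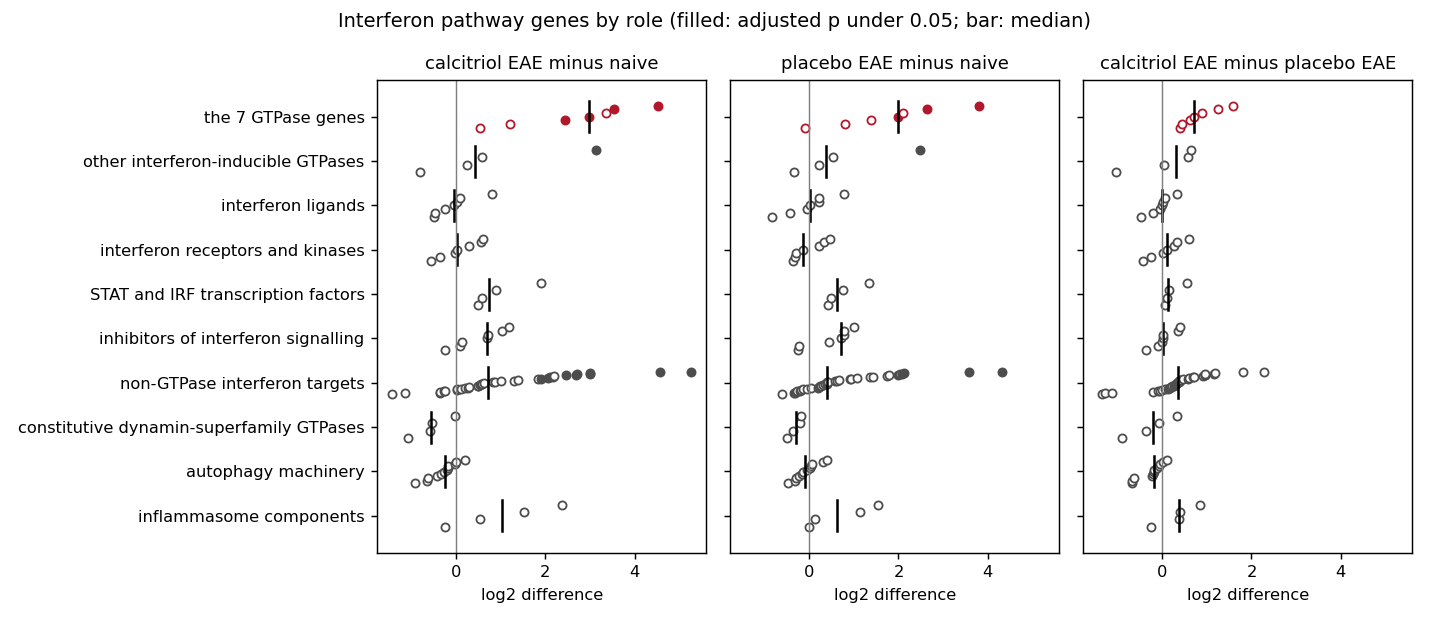
Log2 differences of the 7 GTPase genes (red, 1 probe set a gene) and of pathway genes by role (grey) in the 3 comparisons. Filled points passed a limma adjusted p of 0.05 and black bars are medians. Filled points occur in 3 rows, those of the GTPases, of other interferon-inducible GTPases and of non-GTPase interferon targets.

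Summed markers of monocytes and macrophages, and of neutrophils, were higher on every EAE array than on every naive array. The summed signal of 11 measured monocyte and macrophage markers, out of 15 listed, was 2514.0 to 3289.5 on calcitriol, 2132.2 to 2750.7 on placebo and 1333.7 to 1556.7 on naive arrays. Of the 10 tested, 3 rose in calcitriol-treated and 1 rose in placebo-treated EAE against naive. Neutrophil markers (9 of 9 measured) summed to 3137.7 to 3626.2, 3204.7 to 3621.5 and 2400.1 to 2619.2 on calcitriol, placebo and naive arrays, and 2 of them rose in each EAE group against naive. T cell markers (11 of 14) summed to 3054.1 to 3389.8, 3252.2 to 3638.6 and 3778.3 to 3926.4, and none of them passed the test. These T cell sums were lower on every EAE array than on every naive array. Of the 11, 3 differences were positive in calcitriol-treated and 2 in placebo-treated EAE against naive. Summed natural killer (6 of 8 measured), B cell (7 of 8), microglia (2 of 8) and endothelium (9 of 10) markers mostly overlapped between naive arrays and each EAE group. The exception was B cell markers in placebo-treated EAE, which were 1779.4 to 1907.4 against 1929.6 to 2115.7. With only 2 markers measured, the microglia sum says little about these cells. No measured marker of these lists was at the floor on all arrays. The part of these cells, and of the beta-actin difference, in the GTPase results was not tested.

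Neural markers were measured on every array, as the tissue label requires. Neuron markers (8 of 11 measured) summed to 3006.7 to 3679.2, 3408.0 to 4621.3 and 4504.7 to 10573.9 on calcitriol, placebo and naive arrays, and oligodendrocyte markers (7 of 10) to 4210.3 to 6696.0, 5871.7 to 6325.9 and 5714.2 to 7365.6. Of the oligodendrocyte markers 1 fell in calcitriol-treated EAE against naive. Astrocyte markers (6 of 8) summed to 3437.6 to 5164.8, 5077.7 to 5809.4 and 3961.1 to 4687.2. The placebo astrocyte sums were all above the naive ones, the calcitriol sums overlapped them, and no astrocyte marker passed the test. The monocyte sum was lowest on replicate 7 among calcitriol arrays, like the GTPases. Among placebo arrays its lowest was replicate 1, at 2132.2 against 2352.2 on replicate 10, which was the lowest array for every GTPase. The monocyte sum was highest on replicate 5 among placebo arrays, at 2750.7, as for every GTPase. Among calcitriol arrays it was highest on replicate 6, at 3289.5, while replicate 8 was highest for 6 of the 8 GTPase probe sets. The neutrophil sum was also lowest on replicate 7 among calcitriol arrays, at 3137.7. Among placebo arrays, however, the neutrophil sum was highest on replicate 10, at 3621.5, unlike the GTPases.

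The genes most like the GTPases across the 9 arrays were Samhd1, Crip1, Cd52, Ccl7 and Ccr1. Likeness was the root-mean-square difference from the mean profile of the 7 GTPase genes, each profile centred on its own mean log2 signal, over 8163 genes. It was 0.197 log2 for Samhd1, a nucleotide hydrolase that restricts viruses, and 0.229 for Crip1, 0.234 for the leukocyte surface peptide Cd52, 0.272 for the monocyte attractant Ccl7 and 0.314 for the chemokine receptor Ccr1. The median gene lay at 1.27. Among the GTPases themselves Gbp3 lay nearest to their mean profile at 0.297 and Gbp2 and Mx1 farthest, at 1.08 and 1.00, since Gbp2 differed more and Mx1 less than the rest. All profiles come from the same 9 arrays, and the order rests mainly on the difference between EAE and naive cord.

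Single arrays decided several of the calls. In calcitriol-treated EAE against naive, Gbp3 and the single-gene probe set of Iigp1 passed whichever array was left out (highest limma adjusted p 0.0225 and 0.0132). Gbp2 failed without calcitriol replicate 8 (0.0665). Irgm1 failed without calcitriol replicate 6 (0.0550), calcitriol replicate 8 (0.0729) or naive replicate 3 (0.0536). The family probe set of Iigp1 failed without calcitriol replicate 6 (0.0781), calcitriol replicate 8 (0.0929), naive replicate 3 (0.0718) or naive replicate 4 (0.0503). The shared Tgtp2/Tgtp1 probe set failed without calcitriol replicate 6 (0.0799), calcitriol replicate 8 (0.117), placebo replicate 1 (0.0538) or naive replicate 3 (0.100). Igtp passed without calcitriol replicate 7 (0.0309) and Ifi47 without placebo replicate 10 (0.0328).

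Calls in placebo-treated EAE against naive were less stable. The single-gene probe set of Iigp1 failed without placebo replicate 1 (limma adjusted p = 0.0619). Gbp3 failed without placebo replicate 1 (0.0933), placebo replicate 5 (0.0981), naive replicate 3 (0.0680) or naive replicate 4 (0.0600). Gbp2 failed without placebo replicate 1 (0.177), placebo replicate 5 (0.181) or naive replicate 4 (0.117), and also without calcitriol replicate 6 (0.0776), 7 (0.0558) or 8 (0.0601), which enter through the shared estimate of the spread. Without naive replicate 2, 4 of the 8 passed for placebo, the family probe set of Iigp1 being added (0.0454), and 5 of the 8 passed for calcitriol. The directions against naive held without each array for all but Mx1 in placebo-treated EAE.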

How the data were processed

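The authors deposited 1 linear intensity per probe set, for 12488 probe sets on each of 9 one-colour arrays. Summarisation and scaling by the authors are not given in the sources used here. The labels give no batch or date. Each array was multiplied to reach a mean of 192.8, computed without 66 control probe sets and with 2% trimmed at each end. Values under 19.3, which is 10% of that mean, were set to 19.3 before log2. Exact zeros, 19 to 178 per array, were raised to the floor too, and none of the 8 probe sets or the shared one had any. The 12177 probe sets above the floor on at least 3 arrays were tested in 1 limma fit over all 9 arrays with an intensity trend (limma 3.58.1, R 4.3.3), with Benjamini-Hochberg adjustment per comparison, a threshold of 0.05 and SE from the fit. This moderated fit was tested on simulated data. The median SE was 0.286 log2, and 3 arrays per group limit the precision. The median SD was 0.252 log2 in calcitriol, 0.226 in placebo and 0.362 in naive arrays, and the fit shares 1 spread over the groups.

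Probe sets were named from the platform annotation: 10855 had 1 symbol, 396 several and 1237 none. A list gene was read by 1 probe set, preferring identifiers without a family suffix and, among those, higher mean log2 signal, and list symbols were also matched through Entrez IDs. The members, lists and tests were chosen with earlier results of these data known. All members were named, with list genes past the threshold and up to 4 with the smallest p per list (fewer are printed), and the 5 nearest profiles. Motif searches, tables and plots used Python 3.11.15, pandas 2.3.3 and matplotlib 3.10.9. Alternatives were deposited values, quantile normalization, floors of 5% and 20%, no filter, a filter on the mean, exact zeros as missing, array weights, no trend, 2-group fits and leaving out each array.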

Additional observations from a re-analysis of the deposited data

How the results depend on the processing

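Over 19 alternatives, 474 of 513 recomputed differences of the 9 probe sets (the shared one included) kept their direction and side of the threshold, 26 lost the threshold, 8 gained it and 5 reversed. All reversals were of Mx1 in placebo-treated EAE against naive: 0.04 log2 with values as deposited, 0.11 with array weights, and, over the fits that left out an array, -0.35 to 0.08, with 0.02, 0.06 and 0.08 when placebo replicate 1, placebo replicate 10 or naive replicate 4 was absent. Leaving out each array gave 2 to 6 of the 8 probe sets past the threshold for calcitriol against naive, 0 to 4 for placebo against naive and 0 for calcitriol against placebo. The other settings gave 5 to 7, 2 to 4 and 0. Over all tested probe sets, leaving out each array gave 75 to 392 calls for calcitriol against naive (244 with all arrays), 20 to 176 for placebo against naive (114) and 0 to 1 for calcitriol against placebo (0). Array weights gave 1014 and 639 calls against naive for calcitriol and placebo, and 2-group fits gave 118 and 61. With array weights naive replicate 3 had a weight of 4.38 and naive replicate 2 of 0.259. The split of all calls against naive for calcitriol was 205 higher and 39 lower, and 229 and 13 with values as deposited. The cause of these shifts was not tested. No paired analysis was possible because replicate numbers are unique across the groups. Signals near or below the floor limit Ifi47, Irgm1 and Gbp2 in naive cord.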
